A study of Homo sapiens with 9 samples.

Results

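The genes described here are 10 genes of the nuclear lamina and of chromatin whose levels are widely read as nuclear markers of senescence, a lasting arrest of cell division. They were chosen by symbol: the lamins LMNA, LMNB1 and LMNB2, the lamin B receptor LBR, the high mobility group box genes HMGB1, HMGB2 and HMGB3, and the heterochromatin genes EZH2, SUV39H1 and CBX5. All 10 were found among the 18430 genes of the deposited table, and all 10 passed the filter on low counts that left 13989 genes for testing. The 9 RNA-seq libraries came from A375 cells, a human melanoma line with the genotype BRAFV600E, an activating mutation of the kinase BRAF that every group carried. Control cells (3 libraries) stayed in normal culture. A second group (3 libraries) received vemurafenib, which inhibits mutant BRAF, at 10 µM for 3 days, and the remaining group (3 libraries) received cisplatin, which crosslinks DNA, at 2 µM for 1 day. Treated cells then went back to normal culture and were collected on day 7, with control cells collected alongside. By its title the study was about senescence and its secretory phenotype after vemurafenib. Because dose, exposure and time off drug differed between the drugs, an effect of the agent and an effect of its schedule cannot be told apart.

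The nuclear lamina is a mesh of lamin filaments under the inner nuclear membrane. A-type lamins (lamin A and lamin C, both from LMNA) are abundant in stiff and differentiated cells, while the B-type lamins stay anchored in the membrane and, with LBR, hold silent chromatin at the nuclear edge. HMGB proteins bend DNA, and HMGB1 also acts as an alarm signal when cells release it. EZH2 and SUV39H1 write repressive methyl marks on histone H3, and CBX5 encodes HP1 alpha, which binds the mark that SUV39H1 makes. Loss of LMNB1 and of HMGB2 is known from many kinds of senescent cell, and several of these genes are also transcribed mainly in dividing cells.

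Library totals ranged from 14481020 to 16038475 estimated counts. Vemurafenib replicate 1 stood apart from replicates 2 and 3 of its group. Across 13989 genes its deviation from their mean ran with effective length (Spearman's rho -0.59, where genes are not independent replicates). Effective length was taken as a gene's mean deposited count over its mean deposited FPKM, with vemurafenib replicate 1 included. Results that rest on this library are therefore given with and without it. Of 12 melanoma and melanocyte markers, 3 (MLANA, TYR and TYRP1) stayed below 1 TPM in every library and SOX10 was at 586 to 869 TPM. Markers differed between groups in both directions. DCT was at 0 to 0.1 TPM in controls and 79.6 to 181 after vemurafenib, and S100A1 at 651 to 776 in controls and 2643 to 3113 after cisplatin. CSPG4 was at 301 to 378.5 TPM in controls and 42.4 to 71.0 after vemurafenib. SOX10 itself was at 696 to 764 TPM in controls and 586 to 627 after cisplatin. The summed TPM of the 12 was 1911 to 2154 in controls, 2485 to 2693 after vemurafenib and 4059 to 4614 after cisplatin. S100A1 was the largest part of the cisplatin sum. Markers of other cell types below 1 TPM in all libraries numbered 4 of 5 for blood (all but CD68, also a lysosomal gene), 3 of 6 for epithelium, 2 of 4 for endothelium and 1 of 6 for fibroblasts. The epithelial sum, mostly KRT18, was 388 to 442 TPM in controls, 135 to 206 after vemurafenib and 319 to 355 after cisplatin, and the part of these differences in the results was not tested. No label says that the replicates were grown separately, so the p-values describe the spread between these samples and may reflect technical variation only. In bulk RNA, fewer cells with a transcript and less transcript per cell cannot be told apart.

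RefSeq promoter windows on GRCh38.p14 matched 9 of the 10 members by symbol, all but HMGB2. Sequence is shown for the 5 of these 9 that fell furthest after cisplatin (LMNB1, EZH2, HMGB1, SUV39H1 and LMNB2) and for LMNA, which did not pass against control, a choice made after the values were seen. The 250 bases before each start site were searched on both strands for CCAAT, the box bound by NF-Y, for TTTGAA, the cell cycle homology region bound by DREAM and related complexes, and for TTTGGCGC, TTTCGCGC and TTTCCCGC, forms of the E2F site. Capitals mark matches to these letters on either strand, and no matches overlapped in the sequences shown. The windows were chr5:126776373-126776622 (+ strand) for LMNB1, chr7:148884292-148884541 (- strand) for EZH2, chr13:30465937-30466186 (-) for HMGB1, chrX:48695304-48695553 (+) for SUV39H1, chr19:2456960-2457209 (-) for LMNB2 and chr1:156082323-156082572 (+) for LMNA. Each is written 5′ to 3′ on the strand of its gene. For HMGB1 and HMGB3 the whole window lies inside the GENCODE span of the gene given further on. The RefSeq starts used for LMNB2, EZH2, LBR and CBX5 are also internal to that span, with the GENCODE start inside the window. Other starts of these genes were not searched.
LMNB1: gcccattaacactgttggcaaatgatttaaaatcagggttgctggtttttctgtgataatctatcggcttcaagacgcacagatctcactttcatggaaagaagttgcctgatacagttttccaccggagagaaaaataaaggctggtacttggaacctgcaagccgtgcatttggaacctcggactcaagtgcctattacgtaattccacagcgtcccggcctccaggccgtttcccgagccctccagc
EZH2: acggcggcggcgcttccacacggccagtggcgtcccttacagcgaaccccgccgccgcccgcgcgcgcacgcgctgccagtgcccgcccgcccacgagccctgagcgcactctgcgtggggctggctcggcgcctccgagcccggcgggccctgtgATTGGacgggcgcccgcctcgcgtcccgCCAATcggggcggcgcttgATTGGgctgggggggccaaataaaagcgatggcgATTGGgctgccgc
HMGB1: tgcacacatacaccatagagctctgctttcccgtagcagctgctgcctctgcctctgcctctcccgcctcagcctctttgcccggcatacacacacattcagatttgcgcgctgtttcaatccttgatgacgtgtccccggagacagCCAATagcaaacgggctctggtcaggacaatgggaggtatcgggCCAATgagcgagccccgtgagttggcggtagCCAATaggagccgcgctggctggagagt
SUV39H1: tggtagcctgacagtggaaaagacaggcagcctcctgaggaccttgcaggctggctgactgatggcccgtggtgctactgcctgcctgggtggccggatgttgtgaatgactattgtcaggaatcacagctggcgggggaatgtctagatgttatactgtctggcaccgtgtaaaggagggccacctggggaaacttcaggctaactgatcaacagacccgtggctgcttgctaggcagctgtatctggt
LMNB2: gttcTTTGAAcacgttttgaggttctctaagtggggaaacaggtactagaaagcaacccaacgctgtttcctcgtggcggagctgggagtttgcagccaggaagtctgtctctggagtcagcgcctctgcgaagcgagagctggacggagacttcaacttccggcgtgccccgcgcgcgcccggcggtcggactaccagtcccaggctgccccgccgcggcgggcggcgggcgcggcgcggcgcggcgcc
LMNA: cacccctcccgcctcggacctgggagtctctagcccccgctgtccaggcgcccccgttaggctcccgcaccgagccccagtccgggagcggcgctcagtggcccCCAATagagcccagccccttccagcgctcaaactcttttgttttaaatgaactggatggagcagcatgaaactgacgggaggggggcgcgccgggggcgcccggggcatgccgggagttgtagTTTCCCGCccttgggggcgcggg
CCAAT was found in 5 of the 9 windows, against 35.1% of 11320 promoters of tested genes. EZH2 held 4 copies, HMGB1 and HMGB3 held 3 each, and LMNA and CBX5 held 1 each. TTTGAA was found in 2 windows (LMNB2 and HMGB3), against 8.77% of promoters of tested genes, and an E2F form in 1, that of LMNA (3.83%). No match was found in the LMNB1, LBR or SUV39H1 windows, which says only that these letters are not in those 250 bases.

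After vemurafenib 7 of the 10 genes fell, 0 rose and 3 did not pass, with a median log2 fold change of -0.51 against a median of 0.01 over all tested genes. Of all tested genes, 22.9% were called lower and 22% higher in the same comparison (edgeR's quasi-likelihood test, Benjamini-Hochberg adjustment over all tested genes, threshold 0.05). After cisplatin 9 fell, 0 rose and 1 did not pass, with a median of -1.76 against 0.00 over all tested genes, of which 23.5% were called lower and 22.7% higher. Between the drugs, 9 members were higher after vemurafenib than after cisplatin and 1, CBX5, was lower, where 23% of tested genes were called higher and 20.8% lower. In that comparison all 10 members had drug groups without overlap, 9 with vemurafenib higher (27.9% of tested genes) and 1 with vemurafenib lower (26.1%). Against control, all 3 vemurafenib libraries lay below all 3 controls for 7 members (27% of tested genes, with 25.8% above), and all 3 cisplatin libraries did for 10 (33.8%, with 33.1% above). The 2 comparisons with control share the same 3 control libraries.

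**Figure D1:**
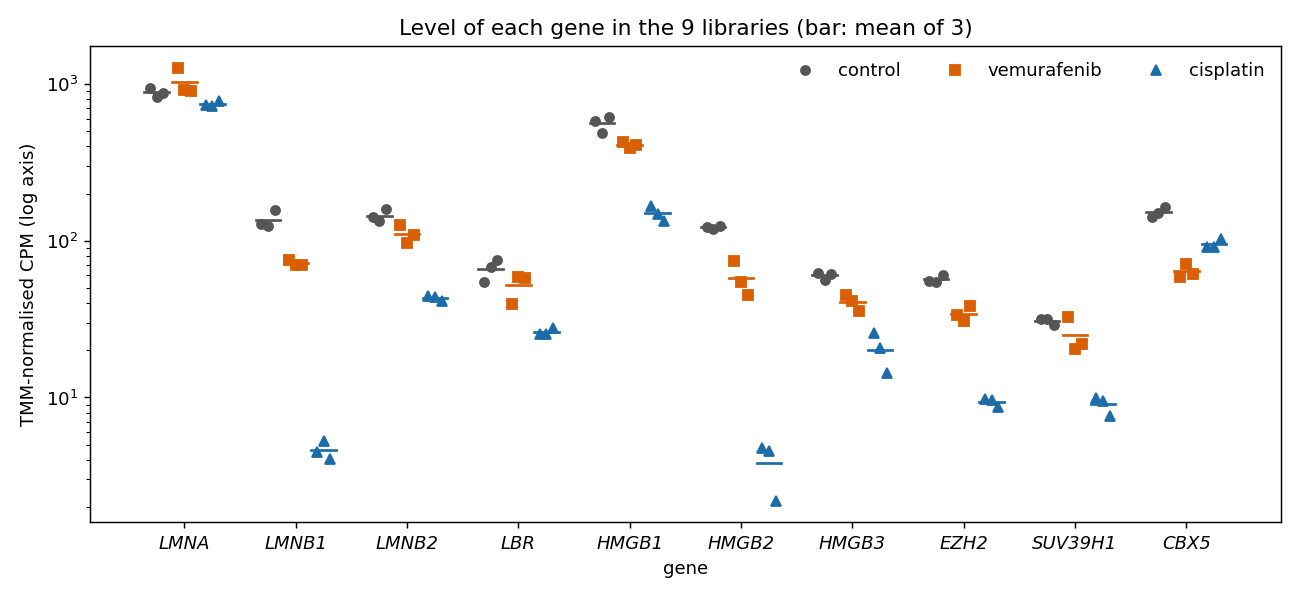
TMM-normalised CPM (log axis) of the 10 genes in each library, with circles for control, squares for vemurafenib, triangles for cisplatin and a bar at each mean of 3. Cisplatin libraries lie below control libraries for every gene, least for LMNA and most for LMNB1 and HMGB2, and CBX5 is the gene whose vemurafenib libraries lie below its cisplatin libraries.

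The B-type lamins fell after both drugs, LMNB1 further than LMNB2 after cisplatin. LMNB1 (gene identifier 4001), at 5:126776623-126837020 of GRCh38 on the + strand, stood at 127, 124 and 156 CPM in control libraries, at 75.0, 70.0 and 70.1 after vemurafenib and at 4.50, 5.29 and 4.06 after cisplatin (CPM are counts scaled to library size, here TMM-normalised). The groups did not overlap in either comparison. The log2 fold change was -0.92 (SE 0.12, adjusted p = 7.69e-05) after vemurafenib and -4.88 (SE 0.15, adjusted p = 1.42e-09) after cisplatin. Vemurafenib cells thus had 52.8% and cisplatin cells 3.41% of the control level, and only 0.436% of tested genes had a lower fold change than LMNB1 after cisplatin. LMNB2, the other B-type lamin gene, at 19:2427638-2456996, went from 142, 133 and 158 CPM in controls to 127, 96.1 and 109 after vemurafenib and 44.2, 44.0 and 41.0 after cisplatin. The groups did not overlap, and vemurafenib replicate 1 was nearest to the controls. LMNB2 fell by 0.39 on the log2 scale after vemurafenib (SE 0.12, adjusted p = 0.0195) and by 1.75 after cisplatin (SE 0.12, adjusted p = 6.17e-07). The vemurafenib call was lost without control replicate 3 (adjusted p = 0.0798) or vemurafenib replicate 2 (0.0668), over a range of 0.000659 to 0.0798 in 19 alternatives. LMNB2 shares 257 exonic bases with TIMM13 on the same strand, so part of its reads could belong to that gene. The 95% intervals of the cisplatin changes, -5.20 to -4.55 for LMNB1 and -2.02 to -1.48 for LMNB2, did not overlap, but the difference between the genes was not tested.

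LMNA, at 1:156082573-156140089 on the + strand, did not pass against control after either drug. It was the most abundant member per length in all 3 groups. Control libraries held 947, 822 and 882 CPM, vemurafenib libraries 1273, 914 and 904, and cisplatin libraries 729.6, 726 and 778. In CPM, vemurafenib replicate 1 was the highest of the 9 libraries, and vemurafenib replicates 2 and 3 lay within the control range. All 3 cisplatin libraries lay below the lowest control in CPM. The deposited TPM placed the libraries otherwise. All 3 vemurafenib libraries (855 to 965 TPM) lay above all 3 controls (669 to 762), and the cisplatin libraries (599 to 694) overlapped the controls. The log2 fold change was 0.22 after vemurafenib (95% interval -0.08 to 0.52, adjusted p = 0.213) and -0.25 after cisplatin (-0.55 to 0.05, adjusted p = 0.163). Without vemurafenib replicate 1 the first value was 0.04, and the second passed (-0.25, adjusted p = 0.0128, SE 0.074 in place of 0.14). LMNA was higher after vemurafenib than after cisplatin, by 0.47 on the log2 scale (SE 0.14, adjusted p = 0.0164). That call was lost without cisplatin replicate 1 (adjusted p = 0.0542) or replicate 2 (0.0619), ranged from 0.00115 to 0.0619 over the alternatives, and came to 0.29 (adjusted p = 0.0119) without vemurafenib replicate 1. Counts per gene do not separate lamin A from lamin C.

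The make-up of lamin transcripts differed between the groups. Per length (TPM), LMNB1 made up 10.9% ± 1.02 (SD, n = 3) of summed lamin TPM in controls, 5.50% ± 0.700 after vemurafenib and 0.536% ± 0.0705 after cisplatin. LMNB2 made up 6.83% ± 0.454, 4.91% ± 0.415 and 2.90% ± 0.255 in the same order, and LMNA 82.3% ± 1.47, 89.6% ± 1.02 and 96.6% ± 0.314. The LMNB1 share was above that of LMNB2 in every control library and below it in every cisplatin library. The ratio of LMNA to LMNB1 TPM was 6.72 to 8.35 in control libraries, 15.0 to 19.3 after vemurafenib and 158 to 207 after cisplatin, with no overlap between groups. In log2 the mean ratio was higher by 1.11 after vemurafenib and by 4.58 after cisplatin than in controls, and lower by 3.47 after vemurafenib than after cisplatin (log2 difference -3.47). Each difference had an exact two-sided permutation p = 0.1, the smallest that 3 against 3 samples allow. The ratio is taken within a library and does not depend on how libraries are scaled to each other.

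**Figure D2:**
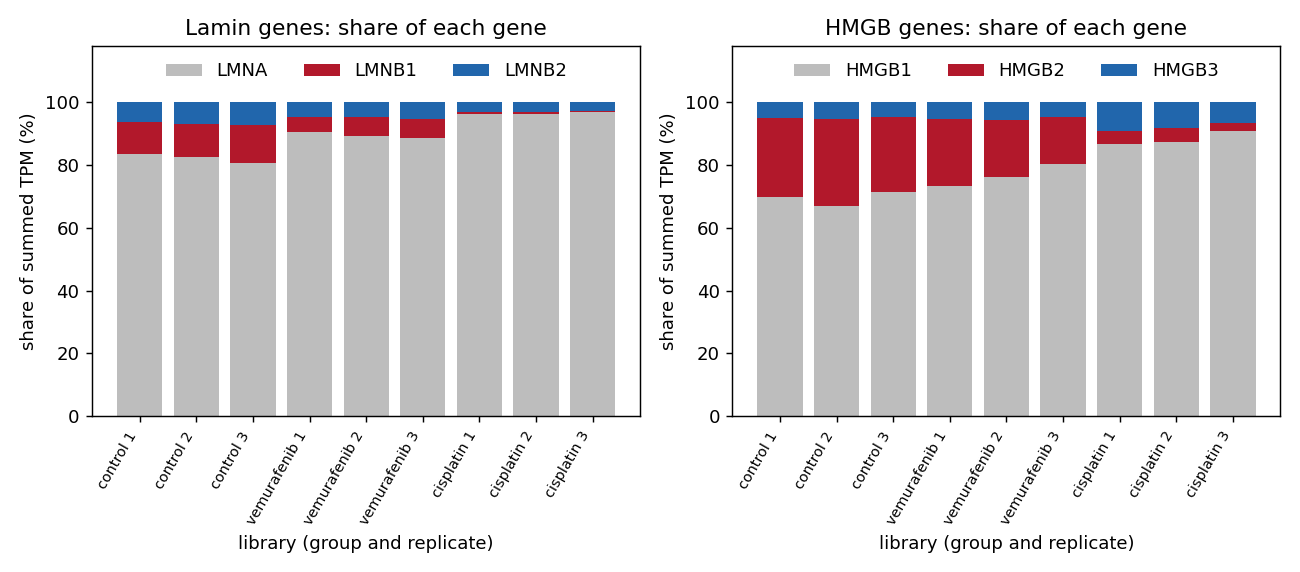
Share of each lamin gene (left) and each HMGB gene (right) in the summed TPM of its family, in percent, as stacked bars for the 9 libraries. The LMNB1 share goes from 10.9% in controls to 5.50% after vemurafenib and 0.536% after cisplatin, and the HMGB2 share from 25.5% to 18.2% and 3.77%.

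LBR, the inner nuclear membrane receptor for lamin B that also carries a sterol reductase domain, fell after cisplatin. At 1:225401502-225428925, it was at 54.7, 67.5 and 75.0 CPM in controls, 39.2, 58.5 and 58.1 after vemurafenib and 25.5, 25.5 and 27.8 after cisplatin. Cisplatin libraries lay below all others, whereas the vemurafenib and control ranges overlapped. The cisplatin log2 fold change was -1.32 (SE 0.17, adjusted p = 6.54e-05). After vemurafenib the change was -0.34 (95% interval -0.69 to 0.01, adjusted p = 0.109), with vemurafenib replicate 1 the lowest of its group. It was -0.17 without that library (adjusted p = 0.222). With replicate number as a block it passed (-0.35, adjusted p = 0.0375), the lowest adjusted p of 19 alternatives, of which the highest was 0.401.

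All 3 HMGB genes fell after both drugs, HMGB2 the furthest after cisplatin. HMGB2, at 4:173331695-173335125 on the - strand, was at 123, 119 and 124 CPM in controls, at 74.2, 54.6 and 44.9 after vemurafenib and at 4.78, 4.55 and 2.20 after cisplatin. The control libraries were close together, the vemurafenib libraries were spread, and no groups overlapped. The log2 fold change was -1.07 (SE 0.21, adjusted p = 0.00136) after vemurafenib and -4.99 (SE 0.26, adjusted p = 5.76e-08) after cisplatin, which left 47.5% and 3.15% of the control level. Only 0.4% of tested genes had a lower cisplatin value. HMGB1, at 13:30456704-30617597 on the - strand, went from 580.4, 485 and 618 CPM to 426, 389 and 406 after vemurafenib and 165, 149 and 134 after cisplatin. Its log2 fold changes were -0.46 (SE 0.12, adjusted p = 0.00788) and -1.91 (SE 0.12, adjusted p = 2.96e-07), and in every group it came next after LMNA in level per length (TPM). HMGB3, at X:150980509-150990775, held 62.5, 55.9 and 61.7 CPM in controls, 44.9, 41.2 and 35.5 after vemurafenib and 25.7, 20.6 and 14.4 after cisplatin. Its log2 fold changes were -0.57 (SE 0.17, adjusted p = 0.0196) and -1.57 (SE 0.18, adjusted p = 3.24e-05). The vemurafenib call of HMGB3 was lost without control replicate 1 (adjusted p = 0.0618), control replicate 3 (0.0558) or vemurafenib replicate 3 (0.0576), with a range of 0.00531 to 0.0618 over the alternatives. GENCODE 29 names 48 pseudogenes after HMGB1 and 29 after HMGB3, of which the deposited table lists 0, so how reads of these near copies were assigned is uncertain for both genes.

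Within the HMGB family the summed TPM was 652 ± 73.9 in controls, 455 ± 21.6 after vemurafenib and 144 ± 14.6 after cisplatin (SD, n = 3). HMGB2 made up 25.5% ± 2.01, 18.2% ± 3.26 and 3.77% ± 1.09 of it, and HMGB1 69.5% ± 2.22, 76.6% ± 3.52 and 88.3% ± 2.29. HMGB3 had a share of 5.03% ± 0.246 in controls and 5.19% ± 0.402 after vemurafenib, ranges that overlapped, and 7.94% ± 1.28 after cisplatin. The HMGB1 to HMGB2 ratio was 2.42 to 3.01 in controls, 3.41 to 5.37 after vemurafenib and 19.1 to 36.0 after cisplatin. The log2 ratio was 0.64 and 3.15 above control, and -2.51 for vemurafenib against cisplatin (exact two-sided permutation p = 0.1 for each, the smallest possible).

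The repressive histone methyltransferases fell after cisplatin, and EZH2 fell after vemurafenib too. EZH2, the catalytic subunit of Polycomb repressive complex 2 at 7:148807383-148884321, was at 55.6, 54.1 and 60.9 CPM in controls, 33.8, 30.8 and 38.1 after vemurafenib and 9.83, 9.57 and 8.72 after cisplatin. The 3 groups did not overlap. Its log2 fold changes were -0.73 (SE 0.11, adjusted p = 0.000286) and -2.60 (SE 0.12, adjusted p = 2.49e-08). SUV39H1, at X:48695554-48709012, had the lowest control level of the members per length. It stood at 31.6, 31.7 and 29.1 CPM in controls, 32.5, 20.4 and 21.8 after vemurafenib and 9.90, 9.50 and 7.66 after cisplatin. In CPM, vemurafenib replicate 1 was the highest of the 9 libraries and replicates 2 and 3 were below every control. In deposited TPM all 3 vemurafenib libraries (17.12 to 21.59) lay below the controls (21.63 to 22.73). The change after cisplatin was -1.77 (SE 0.18, adjusted p = 1.48e-05). After vemurafenib it was -0.31 with all libraries (95% interval -0.68 to 0.07, adjusted p = 0.168) and -0.54 without replicate 1 (adjusted p = 0.00163), the lowest of 19 adjusted p values. Without vemurafenib replicate 2 it was -0.19 (adjusted p = 0.414, the highest). An antisense gene overlaps 685 exonic bases of SUV39H1, and the strand of the reads was not stated.

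CBX5, which encodes HP1 alpha, had the opposite order of the drugs. At 12:54230940-54280133 on the - strand, it was at 142, 149 and 165 CPM in controls, 58.9, 70.9 and 61.7 after vemurafenib and 91.2, 91.7 and 102 after cisplatin. All cisplatin libraries lay between the other groups with no overlap. CBX5 fell by 1.25 after vemurafenib (SE 0.11, adjusted p = 3.87e-06), the largest fall of the 10 in that comparison, and by 0.68 after cisplatin (SE 0.11, adjusted p = 0.000367), the smallest of the 9 that passed. The direct comparison gave -0.57 for vemurafenib against cisplatin (SE 0.11, adjusted p = 0.00127), and all 19 alternatives kept this direction and call (adjusted p up to 0.0209). CBX5 was the 1 member whose deposited counts were not whole numbers. Over the 9 libraries its log2 CPM had a Pearson correlation of 0.18 to 0.35 with the 8 members other than LMNA, and -0.37 with LMNA, while LMNB1, LMNB2, HMGB1, HMGB2 and EZH2 had 0.985 to 0.994 with each other. These values describe 3 groups of libraries and have no p.

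**Figure D3:**
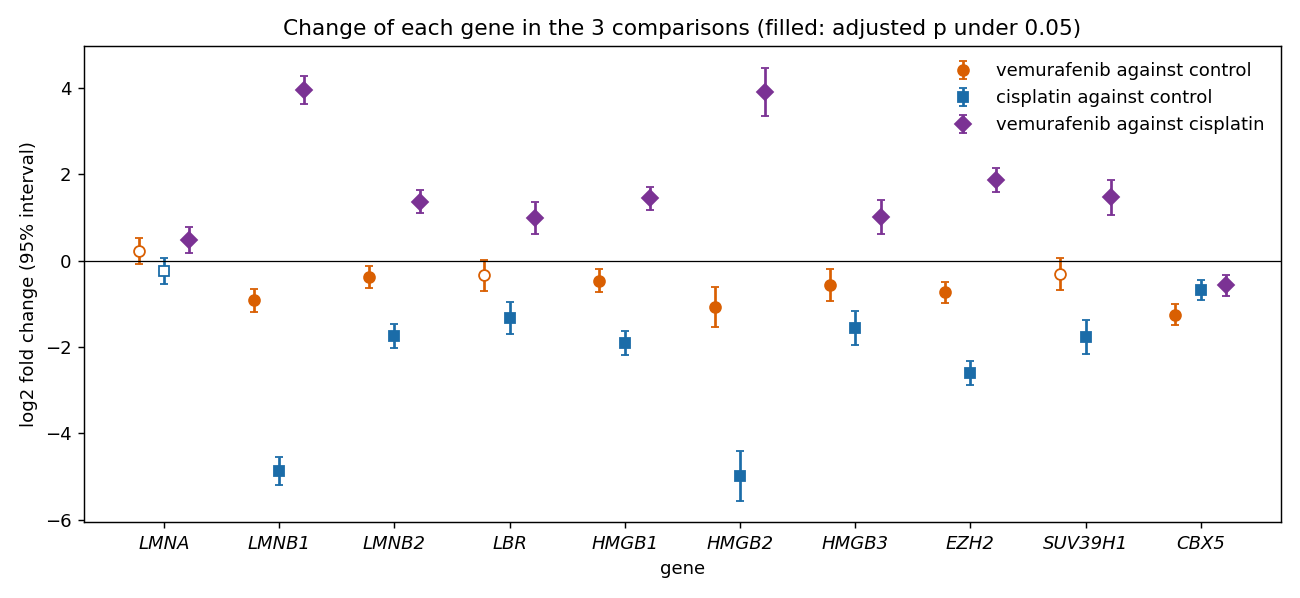
Log2 fold change with its 95% interval for each gene after vemurafenib (circles) and cisplatin (squares) against control and for vemurafenib against cisplatin (diamonds), filled where adjusted p was under 0.05. The cisplatin values of LMNB1 (-4.88) and HMGB2 (-4.99) lie lowest, LMNA stays near 0 against control, and CBX5 is the only gene with a vemurafenib value below its cisplatin value.

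The drugs differed from each other for all 10 members. LMNB1 was 15.5-fold and HMGB2 15.1-fold higher after vemurafenib than after cisplatin (log2 3.95, SE 0.14, adjusted p = 1.13e-08, and 3.91, SE 0.25, adjusted p = 3.37e-07). EZH2 was 3.65-fold higher, SUV39H1 2.76-fold, HMGB1 2.72-fold and LMNB2 2.57-fold. HMGB3 and LBR were 2.01-fold and 1.98-fold higher, and LMNA 1.38-fold. Per length, the order of the members in controls was LMNA, HMGB1, HMGB2, LMNB1, LMNB2, EZH2, LBR, HMGB3, CBX5 and SUV39H1, where EZH2 and LBR, and LBR and HMGB3, overlapped in TPM. In vemurafenib cells LMNA to LMNB2 kept this order, with LMNB1 and LMNB2 now overlapping (54.8 ± 4.25 and 49.0 ± 2.60 TPM), and CBX5 was last at 11.4 ± 2.34 TPM. In cisplatin cells LMNB1 was last, at 3.51 ± 0.328 TPM, and HMGB2, at 5.52 ± 1.93, overlapped LMNB1 on one side and EZH2 and SUV39H1 on the other, while CBX5, at 16.6 ± 1.54 TPM, came after LMNA, HMGB1 and LMNB2.

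Most markers of dividing cells fell after both drugs, and further after cisplatin. Most of the 10 members did the same, but CBX5 fell further after vemurafenib and LMNA did not pass against control. Against control with all libraries, LBR and SUV39H1 passed only after cisplatin. Of 15 proliferation markers, 13 fell after vemurafenib (median log2 fold change -0.84) and 15 after cisplatin (median -5.09), where 22.9% and 23.5% of all tested genes fell. All 15 were higher after vemurafenib than after cisplatin, as were 23% of tested genes. PLK1, a mitotic kinase, had log2 fold changes of -1.34 and -5.77, TOP2A, a topoisomerase of replication and mitosis, of -1.15 and -6.23, and BUB1, a spindle checkpoint kinase, of -1.30 after vemurafenib. MKI67, the proliferation antigen, fell by 5.91 after cisplatin. MYBL2 and PCNA did not pass after vemurafenib (log2 fold changes -0.15 and -0.10). The part of proliferation in the falls of the 10 members was not tested. Among 11617 other genes with at least 50 counts on average, those closest to LMNB1 in log2 CPM over the 9 libraries were CDCA2, TPX2, DIAPH3 and NUF2 (Pearson's r of at least 0.998), those closest to HMGB2 were UBE2C, ESPL1, KIF4A and BIRC5 (0.997 to 0.999), and those closest to HMGB1 were MAD2L1, MCM2, NCAPH and RBBP7 (at least 0.996). Close to LMNA were UCK1 (0.985), CMTM3 (0.98) and ZC3HC1 (0.98). UCK1 was at 54.4 ± 4.12 CPM in controls, 62.4 ± 15.7 after vemurafenib and 43.4 ± 1.69 after cisplatin. Like LMNA, UCK1 had its widest spread in the vemurafenib group.

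Of 23 tested genes of the nuclear envelope and of lamin processing, 4 fell and 3 rose after vemurafenib, and 11 fell and 4 rose after cisplatin (medians -0.14 and -0.33). Of all tested genes, 22.9% fell and 22% rose after vemurafenib, and 23.5% fell and 22.7% rose after cisplatin. The vemurafenib counts and the count that rose after cisplatin are thus no higher than those shares of 23 genes would give. TMPO, whose products include the lamina-associated LAP2 proteins, went from 256 ± 24.7 CPM in controls to 102 ± 17.1 after vemurafenib and 26.9 ± 2.83 after cisplatin (adjusted p = 1.56e-05 and 2.13e-08). NUP210, a membrane protein of the nuclear pore, had log2 fold changes of -1.31 and -3.26, and SYNE2, which links the nucleus to the cytoskeleton, of -2.30 after cisplatin. SUN2 and NUP153 were the others that fell after vemurafenib (chosen after their values were seen). FNTB, the beta subunit of the farnesyltransferase that lipid-modifies lamins, rose after vemurafenib from 22.4 ± 2.54 to 56.6 ± 4.59 CPM (log2 1.34, adjusted p = 4.61e-05). A readthrough gene, CHURC1-FNTB, is listed beside FNTB in the deposited table, so reads could be split between them. FNTA and ICMT, which act in the same modification, also rose (0.57 and 0.26, adjusted p = 0.00221 and 0.0471). RCE1 and ZMPSTE24, processing genes of the same list, did not pass after vemurafenib (log2 fold changes -0.30 and 0.36, adjusted p = 0.122 and 0.0594). They too were named after their values were seen. After cisplatin the genes that rose were ZMPSTE24, the protease that matures prelamin A (0.80, adjusted p = 0.000877), SYNE1, TOR1AIP1 and TOR1AIP2 (FNTA, ICMT and these 4 chosen after their values were seen). Without vemurafenib replicate 1, 8 of this list fell and 5 rose after vemurafenib. The counts over all tested genes grew too, to 3956 that fell and 3716 that rose of 14168. With all libraries they were 3200 and 3082 of 13989. Without control replicate 2, 2 of the list rose after cisplatin, as did 2631 of 14164 tested genes (3181 of 13989 with all libraries).

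Of 14 other high mobility group genes tested, 6 fell and 1 rose after vemurafenib, and 8 fell and 1 rose after cisplatin (medians -0.14 and -0.56), against 22.9% and 22% of all tested genes, and 23.5% and 22.7%. The gene that rose after cisplatin was TOX4 (log2 0.28, adjusted p = 0.0373, chosen after its value was seen), and the count of rising genes was 0 under several alternatives in each comparison. HMGA2, a chromatin protein of embryonic and tumour cells, went from 776 ± 43.1 CPM in controls to 74.9 ± 11.8 after vemurafenib and 311 ± 52.0 after cisplatin, and was lower after vemurafenib than after cisplatin (log2 -2.05, adjusted p = 7.93e-07). HMGA1 had log2 fold changes of -2.04 and -1.74. HMGN2, a nucleosome-binding protein, fell by 1.48 after cisplatin and by 0.55 after vemurafenib (adjusted p = 0.021). The vemurafenib call of HMGN2 was lost without control replicate 1 (0.0556), control replicate 3 (0.0788), vemurafenib replicate 2 (0.0681) or vemurafenib replicate 3 (0.0663). Between the drugs, HMG20B and HMGN3 were higher after vemurafenib by 0.99 and 0.95. Over the left-out libraries these values ranged from 0.67 to 1.16 and from 0.84 to 1.03. HMG20B was spread after vemurafenib (212 ± 76.7 CPM, against 107 ± 7.96 after cisplatin).

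Of 29 tested Polycomb genes, 12 fell and 2 rose after vemurafenib, and 10 fell and 2 rose after cisplatin (medians -0.23 and -0.16). The shares of all tested genes were 22.9% and 22% after vemurafenib and 23.5% and 22.7% after cisplatin. PHC2, a subunit of Polycomb complex 1, fell from 447 ± 15.3 to 226 ± 27.4 CPM after vemurafenib, and LCOR fell by 0.86. LCOR was spread after vemurafenib (34.7 ± 13.1 CPM), and its log2 fold change was -1.08 to -0.58 over the left-out libraries. CBX2, a chromodomain subunit, fell by 2.10 and PHF19, an accessory subunit of complex 2, by 1.95 after cisplatin, with PCGF6 down by 0.99. PCGF5 and RBBP4 rose after vemurafenib (0.80 and 0.33), and KDM6B, a demethylase that removes the Polycomb mark, and EZH1, the paralog of EZH2, after cisplatin (0.55 and 0.33, adjusted p = 0.00597 and 0.0236). KDM6B was higher in cisplatin than in vemurafenib cells (177 ± 32.4 against 71.9 ± 2.26 CPM, log2 -1.30, adjusted p = 1.58e-05). RBBP4, KDM6B against control and EZH1 were chosen after their values were seen, and PCGF5 lost its call without control replicate 1 (adjusted p = 0.0603) or vemurafenib replicate 2 (0.0594). Of 34 genes of H3K9 methylation and HP1 function, 12 fell and 1 rose after vemurafenib, and 18 fell and 3 rose after cisplatin (medians -0.26 and -0.43), beside the same shares of all tested genes (22.9% and 22%, 23.5% and 22.7%). UHRF1, a reader that couples histone and DNA methylation, went from 102 ± 9.58 to 43.5 ± 3.18 and 9.46 ± 0.743 CPM. ASF1B, a histone chaperone, fell by 4.03 and CHAF1A, of the chromatin assembly factor, by 2.96 after cisplatin. KDM4B, a demethylase, fell by 1.06 and CHAF1B by 0.91 after vemurafenib. KDM4A rose after both drugs, and LRIF1 and SETDB2 after cisplatin (chosen after their values were seen). SUV39H2, the paralog of SUV39H1, fell after both drugs, by 0.68 and 1.59, and the other HP1 genes, CBX1 and CBX3, fell after cisplatin by 0.80 and 0.40 and did not pass after vemurafenib (log2 -0.27 and 0.15, adjusted p = 0.06 and 0.205), where CBX5 had its larger fall. These 3 paralogs were also named after their values were seen.

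**Figure D4:**
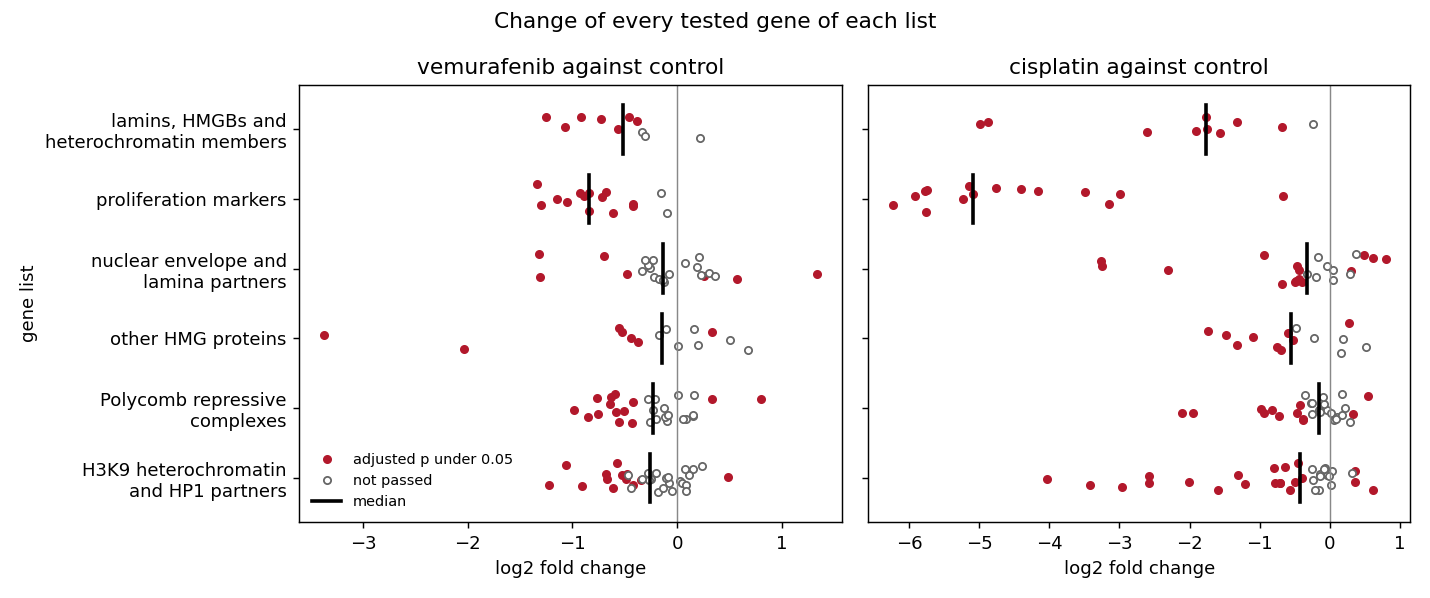
Log2 fold change of every tested gene of 6 lists after vemurafenib (left) and cisplatin (right) against control, filled where adjusted p was under 0.05, with a bar at each median. The median of the 10 lamin, HMGB and heterochromatin members (-0.51 and -1.76) lies between that of the proliferation markers (-0.84 and -5.09) and those of the lists of partners.

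The vemurafenib changes were the smaller ones for 9 members, so they were followed over the left-out libraries. CBX5, LMNB1, EZH2, HMGB2 and HMGB1 kept their calls in all 19 alternatives, with adjusted p values no higher than 0.000271, 0.000608, 0.00348, 0.00656 and 0.0375. Their log2 fold changes ranged from -1.34 to -1.03, -0.99 to -0.79, -0.83 to -0.61, -1.29 to -0.94 and -0.56 to -0.36. Vemurafenib replicate 1 lay furthest from the mean of replicates 2 and 3 for SUV39H1, HMGB2, LBR and LMNA (log2 CPM differences 0.62, 0.58, -0.57 and 0.49).

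**Figure D5:**
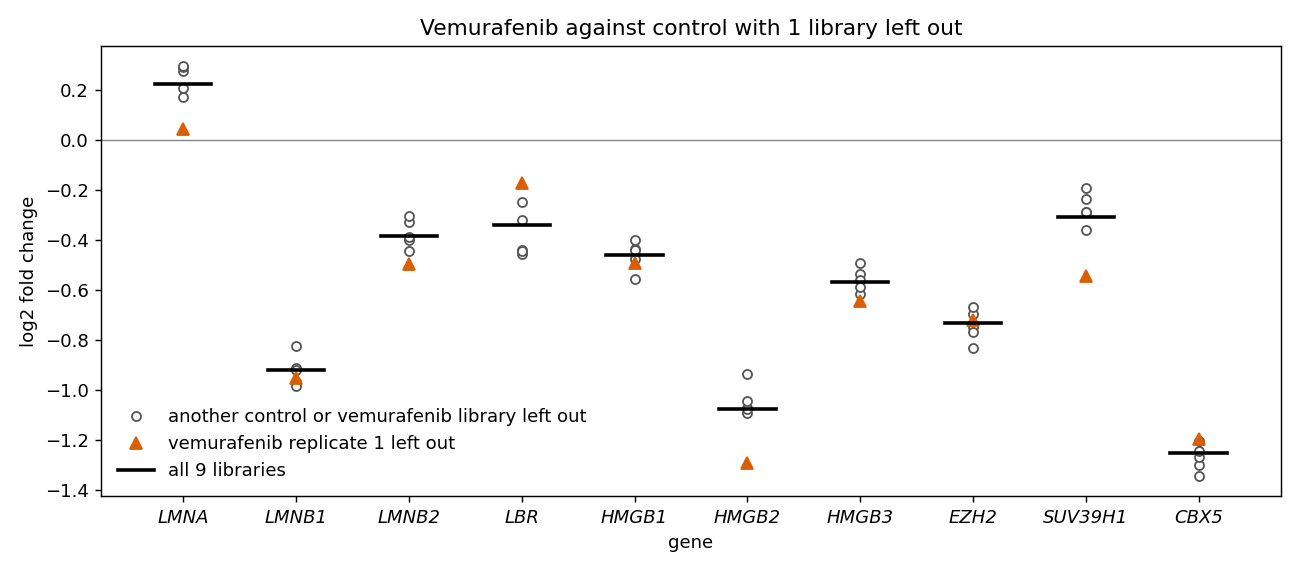
Log2 fold change of each gene after vemurafenib against control with all 9 libraries (bar), without vemurafenib replicate 1 (triangle) and without each other control or vemurafenib library (circles). Leaving out vemurafenib replicate 1 brings LMNA to 0.04 and LBR to -0.17 and takes SUV39H1 to -0.54 and HMGB2 to -1.29, while LMNB1, EZH2 and CBX5 move little.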

How the data were processed

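The authors deposited 1 table of 18430 genes with estimated counts, TPM and FPKM per sample, so named per the file headers. HISAT2 2.0.4 and hg38 are named per the submitters' processing notes, while counting tool, annotation and strand setting were not given in the sources used here. Deposited counts that were not whole (13.6% to 14.1% of values per library, tolerance 1e-06) were rounded. Genes were filtered with filterByExpr defaults, libraries scaled by TMM, and all 9 samples entered 1 model of 3 groups in edgeR 4.0.16 under R 4.3.3 (glmQLFit, glmQLFTest, two-sided, Benjamini-Hochberg, threshold 0.05, biological coefficient of variation 0.139). A standard error is the log2 fold change divided by the square root of F. TPM as deposited by the authors served for shares, ratios and the order of levels, and TPM and FPKM for limma 3.58.1 alternatives, on log2(value + 1) or log2(value + 0.1). DESeq2 1.42.0 was a further alternative. The code was tested on simulated data.

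The members and the 5 accompanying lists were chosen with earlier results of these data known, so no p-value was computed over a list. Of the listed genes, MLIP and EZHIP did not pass the filter, and HMGB4 and PALI1 were not analysed here. Genes named from the lists were up to 3 per list and comparison with the largest change among called genes with at least 50 counts on average in the higher group; the genes most like LMNB1, LMNA, HMGB1 and HMGB2 were the 4 with the highest Pearson correlation of log2 CPM. Gene coordinates are from GENCODE 29 (GRCh38). Replicate numbers recur in the labels, and deviations from the group means correlated between same-numbered libraries at 0.18, 0.14 and 0.18 for vemurafenib and control, 0.21, 0.08 and 0.13 for cisplatin and control, and 0.17, 0.01 and 0.10 for the drugs. By the rule that every pair exceed 0.1, only the first was taken as a possible pairing, from the data and not from the labels. No pair of replicates agreed within sampling noise. Some genes that meet these rules are not reported here.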

Additional observations from a re-analysis of the deposited data

How the results depend on the processing

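The 30 log2 fold changes of the 10 genes were recomputed under 19 alternatives each (other scalings, filters, tools and units, a replicate block, the compared groups alone, and each library left out). Of 570 values, 0 changed direction, 10 lost the call and 6 gained it. The members called lower after vemurafenib numbered 5 to 8 over the left-out libraries (7 with all), after cisplatin 9 to 10, and those higher after vemurafenib than after cisplatin 8 to 9. With limma on log2(TPM + 1) or log2(TPM + 0.1), 1 member, LMNA, was called higher after vemurafenib (0.30, adjusted p = 0.0191 and 0.019). LMNB2 (vemurafenib against control, adjusted p = 0.0516) and LMNA (between the drugs, 0.0523) lost their calls when only the compared groups were fitted, where LMNA passed after cisplatin (0.0184), and HMGB3 lost its vemurafenib call with log2(TPM + 0.1) (0.0529), as did LCOR (0.0502). With the replicate block 8 members were lower after vemurafenib, as LBR gained its call (-0.35, adjusted p = 0.0375), 9 were lower after cisplatin, and the block changed no other call of a member. The ratio differences kept their direction, with LMNA to LMNB1 at 0.99 to 1.18, 4.49 to 4.68 and -3.59 to -3.37 over the left-out libraries, and HMGB1 to HMGB2 at 0.47 to 0.79, 2.86 to 3.32 and -2.68 to -2.23. With the replicate block, an exact sign-flip permutation test gave p = 0.25 for each, the smallest that 3 pairs allow. Counts over the accompanying lists also moved, as did those over all tested genes (12445 to 18392 tested). Of all tested genes, 2318 to 3956 fell and 2378 to 3972 rose after vemurafenib. After cisplatin 2557 to 4422 fell and 2556 to 4220 rose. Genes that fell after vemurafenib ranged from 3 to 8 in the nuclear envelope list, 4 to 8 in other HMG genes, 9 to 13 in Polycomb, 8 to 15 in H3K9 genes and 9 to 14 in proliferation markers, and after cisplatin from 8 to 13, 8 to 10, 7 to 14, 16 to 21 and 15 to 15. For genes that rose after vemurafenib the ranges were 2 to 6 for the nuclear envelope list, 0 to 4 for other HMG genes (3 with the replicate block), 1 to 4 for Polycomb and 1 to 2 for H3K9 genes. After cisplatin they were 2 to 6, 0 to 2, 1 to 4 and 1 to 4. Between the drugs, 3 of 23 envelope, 3 of 14 HMG, 9 of 29 Polycomb and 6 of 34 H3K9 genes were lower after vemurafenib. Of all tested genes, 20.8% were. Over the alternatives these counts ranged from 1 to 5, 1 to 3, 6 to 9 and 3 to 6. Higher after vemurafenib were 9, 6, 8 and 14 genes in the same order, and 23% of all tested genes. Those counts ranged from 7 to 11, 5 to 8, 6 to 10 and 12 to 18. Scaled by library totals alone, 60% of all called genes were higher after vemurafenib, against 49.1% with TMM, and the median over all genes was 0.11 in place of 0.01. The causes of these differences were not tested.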
